A study of Mus musculus with 4 samples.

Results

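The comparison set the RNA of mouse 3T3 fibroblasts harvested after 0.5 h of tumour necrosis factor (TNF) against that of untreated cells, on 1 array of each. It used 2 of the 4 arrays of the series. The remaining pair is titled as 2 and 12 h of TNF and serves below only to show what became of the genes that rose. 3T3 cells are an immortal line of mouse embryonic fibroblasts. Per the labels' protocols, all cells grew in medium with 10% bovine calf serum, spent 24 h at low density and then a night in 0.5% serum. Basal cells were harvested at that point, and the treated cells received TNF at 10 ng/ml for 0.5 h first. The 12 h cells also received 10 ng/ml. The treatment protocol of the 2 h array repeats the basal text and gives no dose. That array is taken as 2 h of TNF from its title alone. The series title asks about mRNA stability in the timing of inflammatory genes, and these arrays measured RNA levels. The comparison covers all 18194 genes that the array names, each read through the probe set with its highest mean log2 signal over the 4 arrays.

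With 1 array a group there is no spread between replicates and no test. No array holds cells kept for 0.5 h longer without TNF, so an effect of TNF and one of the added time or handling cannot be told apart. Values are linear intensities. A signal is called clear where it reached 102 (the 75th percentile of all values) on the basal or the 0.5 h array, and "rose" and "fell" are used only for a gene of clear signal whose ratio was 2-fold or more. Signals under 9.08 (the 30th percentile) were raised to that floor, and a fold against it is a lower bound. As a measure of noise, the scatter of the log2 ratio among all probe sets of like mean signal is given as a scaled median absolute deviation. It was 1.95 (log2) below a signal of 8, 0.60 between 16 and 32, 0.26 between 64 and 128, 0.12 between 512 and 1024 and 0.05 above 4096.

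TNF binds its receptor TNFR1 on fibroblasts, and adaptor and ubiquitin ligase proteins at the receptor switch on the IkB kinases and the MAP kinases. The IkB kinases mark IkB-alpha for destruction, which frees NF-kB dimers to enter the nucleus and bind kB sites in DNA, while MAP kinases act on SRF cofactors and AP-1 proteins. Genes that respond through factors already in the cell need no new protein and are called immediate early or primary genes. Many of them encode unstable mRNAs, and several encode the inhibitors that end the response.

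The immediate response was small in number and nearly all upward. Among 7118 genes of clear signal, 28 rose and 4 fell, which is 0.393% and 0.0562% of them. The 6 genes used as marks of the immediate response, Cxcl1, Tnfaip3, Nfkbia, Ccl20, Fos and Zfp36, were all among the 28. Their log2 ratios ran from 1.81 to 5.55. These marks were chosen with earlier results of these data known, so their presence is no support by itself. By role, 7 of the 28 encode chemokines, 3 encode inhibitors of NF-kB, 2 other secreted factors, 5 transcription factors, 6 other early regulators and 5 receptors, enzymes or transporters. Of the 28, 26 stand in the 25 gene lists used below, and the 2 outside them are Slc25a25 and Clcn5. The lists hold 418 of the 18194 genes. They too were chosen with earlier results known, so the 26 are no support by themselves. Of the 28, 10 reached clear signal on the 0.5 h array only, and all 4 that fell reached it on the basal array only, so these passed the signal limit through the array where they were high. Among the 6961 genes already clear in basal cells, a view added after seeing the data, 18 rose. Larger steps thinned the risen genes slowly and the fallen ones at once: 18 genes were at least 3-fold higher and 1 at least 3-fold lower, and at 8-fold the counts were 6 and 0. At 1.25-fold the balance was the opposite, with 235 genes higher and 446 lower, beside a median log2 ratio of -0.05 over all probe sets.

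**Figure D1:**
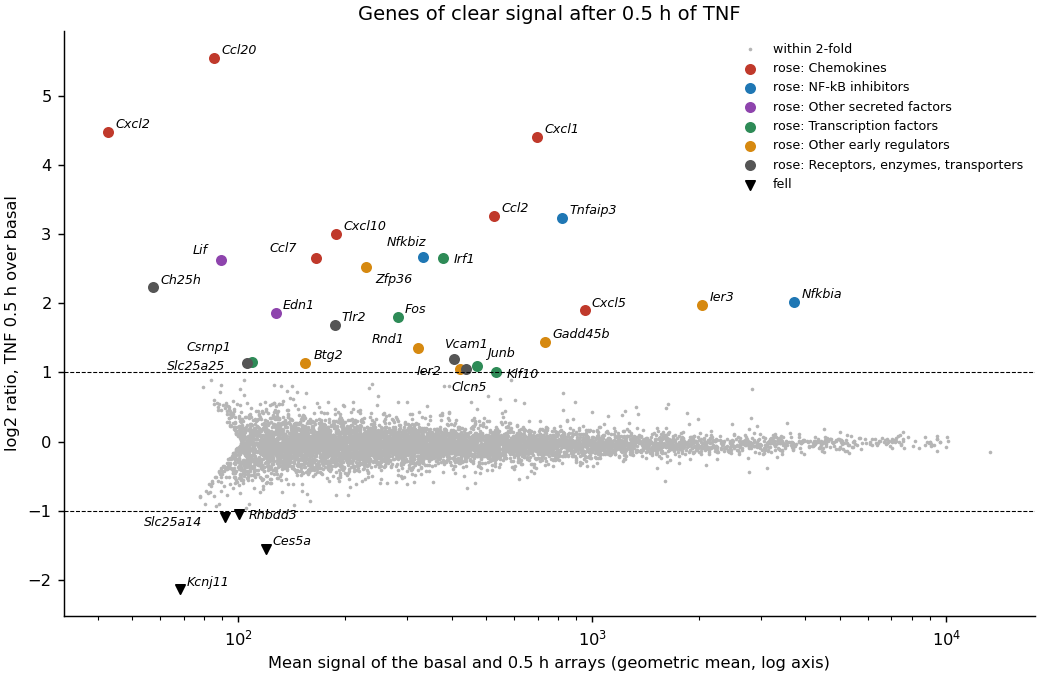
Each point is 1 gene of clear signal, with the mean of its basal and 0.5 h signals on a log axis and its log2 ratio on the vertical axis; dashed lines mark 2-fold, and Cxcl2 is drawn with its basal signal at the floor. The 28 genes that rose lie above the upper dashed line, over a grey band that narrows as signal grows, and the 4 that fell lie at its dim end. No gap parts the risen from the grey at that line, where Klf10 (1.002) and Ereg (0.994) are neighbours.

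Chemokines gave the largest ratios. These are small secreted proteins that draw white blood cells, CXC members mainly neutrophils or T cells and CC members monocytes and lymphocytes. Of 15 CC chemokines measured, 3 had clear signal and rose, and of 14 CXC and CX3C chemokines 6 had clear signal and 4 rose. Ccl20, Ccl7, Cxcl2 and Cxcl10 had clear signal only on the 0.5 h array, which made them differ, so these counts are no support by themselves. Chemokines already clear in basal cells numbered 1 and 4 in these lists, of which 1 (Ccl2) and 2 (Cxcl1 and Cxcl5) rose. Over all measured members, dim ones included, the median log2 ratios were 0.59 and 0.60.

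Ccl20, which draws lymphocytes and dendritic cells through CCR6, had a basal signal of 12.5 and read 584, 714 and 625 after 0.5, 2 and 12 h. It was thus near the floor before TNF and high on all 3 TNF arrays. The neutrophil chemokine Cxcl1 read 151, 3211, 1278 and 658 on the same arrays, so its highest signal was at 0.5 h and its lowest before TNF. Its log2 ratio of 4.41 at 0.5 h was 37.7 times the scatter at that signal. Cxcl2, a second neutrophil chemokine that lies close to Cxcl1 on chromosome 5, read 0.68, 203, 42.2 and 10.6. The basal value is under the floor, so the rise is written as at least 22.3-fold, and the 12 h value was again close to the floor.

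The monocyte chemokines Ccl2 and Ccl7 took a different course after their early rise. Ccl2 went from 170 to 1641 at 0.5 h and stood at 2851 and 2961 at 2 and 12 h. Ccl7 went from 66.1 to 417 and then stood at 681 and 825. Both were thus highest on the last array. Cxcl10, a T cell chemokine that interferons also induce, read 66.6, 535, 1777 and 780, with its highest signal at 2 h. Cxcl5, another neutrophil chemokine, already had a signal of 493 in basal cells and read 1834 at 0.5 h, a log2 ratio of 1.90, with 1909 and 1319 later. The clear chemokines that did not rise were Cx3cl1, at 179 and 318 (0.83), and the homeostatic chemokine Cxcl12, at 822 and 893 (0.12).

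Below clear signal the chemokines gave little that can be read against the scatter. Of the 20 such genes in both lists, Cxcl16 (4.40 to 27.7) and Ccl9 (34.3 to 69.4) were 2-fold or more higher and Pf4 (31.5 to 3.51) lower. Over all 8310 genes of low signal, 4.66% were 2-fold or more higher and 5.74% lower, so single genes there stand within a wide noise. The 20 include genes under the floor on both arrays, such as Ccl3 and Ccl11, which the 8310 leave out, so the 2 counts have unlike bases. Ccl5, a late TNF target, read 3.53 and 13.6, and Cxcl3, another neutrophil chemokine, 13.5 and 2.27.

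The promoters of 4 of the risen chemokine genes, from RefSeq's windows on GRCm38.p6 (250 bases before to 50 after the start), hold a 10-base match to the NF-kB consensus. They are printed because kB sites are where the TNF-driven factor is known to bind these genes. Each line gives the match in capitals with 10 bases on either side, on the gene's strand:
Ccl20: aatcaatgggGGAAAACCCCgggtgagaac
Cxcl2: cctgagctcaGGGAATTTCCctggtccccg
Cxcl1: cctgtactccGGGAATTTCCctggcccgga
Cxcl10: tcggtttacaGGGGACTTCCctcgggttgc
The first capital lies 80, 97, 71 and 104 bases before the start of Ccl20, Cxcl2, Cxcl1 and Cxcl10 in that order. In Cxcl2, Cxcl1 and Cxcl10 a second match begins 1 base further on and overlaps the first, so that the pair is 1 place in the DNA. Cxcl10 has a further match 159 bases before its start. The matches of Cxcl1 and Cxcl2 share their 10 letters, and the whole stretch before the start of Cxcl1 (chr5:90890995-90891244, plus strand, 250 bases) reads as follows, with both overlapping matches in capitals:
Cxcl1: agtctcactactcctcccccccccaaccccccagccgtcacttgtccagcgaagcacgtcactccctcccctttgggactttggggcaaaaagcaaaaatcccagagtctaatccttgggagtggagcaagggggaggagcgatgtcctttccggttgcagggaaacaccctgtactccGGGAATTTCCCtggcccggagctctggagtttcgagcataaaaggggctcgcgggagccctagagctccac

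Inhibitors of NF-kB rose together with the chemokines. The list of NF-kB feedback inhibitors holds 12 measured genes, 8 of clear signal, of which 3 rose and 0 fell. The list's median log2 ratio was 0.08, since the other 5 lay between -0.30 and 0.12. Tnfaip3 encodes A20, an enzyme that edits ubiquitin chains at the TNF receptor. It read 268, 2521, 1463 and 568 on the basal, 0.5 h, 2 h and 12 h arrays, with its highest signal at 0.5 h and a log2 ratio of 3.24 there. Nfkbia encodes IkB-alpha, which carries NF-kB out of the nucleus. On its brightest probe set it already had the strong basal signal of 1843 and read 7476, 5826 and 5134 later. There its level stayed high where that of Tnfaip3 came down. How far it came down differed between probe sets. The other clear ones of Nfkbia read 381, 6170, 2893 and 3711 at 0.5 h and 162, 4115, 1294 and 2067 at 12 h. On the brightest, the log2 ratio of 2.02 was 28.0 times the scatter at that signal, against 27.7 times for Tnfaip3 with a larger ratio at a lower signal. Nfkbiz encodes IkB-zeta, an IkB-like protein of the nucleus that helps NF-kB at some genes and opposes it at others. Its signals were 132, 836, 390 and 141, back near basal at 12 h.

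Probe sets of these 3 genes can be set side by side, since each has more than 1 of clear signal. On the 5 that read Nfkbia the log2 ratios were 2.02, 2.09, 2.24, 2.59 and 3.15, from basal signals between 89.2 and 1843. Those of Tnfaip3 gave 3.24 (268 to 2521) and 4.06 (60.7 to 1016). The 3 of Nfkbiz gave 2.26, 2.62 and 2.67. All 10 passed 2-fold. Among other members of the list Tnip1, whose product works with A20, read 234 and 255, and Nfkbib, encoding IkB-beta, 113 and 91.6. Nfkbie, encoding IkB-epsilon, was 2.37-fold higher below clear signal (36.5 to 86.4).

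The stretches before the starts of Tnfaip3 (chr10:19015411-19015660) and Nfkbia (chr12:55492648-55492897), both on the minus strand of GRCm38.p6 and 250 bases long, are printed because both genes rose on every clear probe set. Capitals mark, in Tnfaip3, a TATA box (TATAAA), an AP-1 motif (TGANTCA) and 2 matches to the NF-kB consensus, and in Nfkbia 1 match to that consensus:
Tnfaip3: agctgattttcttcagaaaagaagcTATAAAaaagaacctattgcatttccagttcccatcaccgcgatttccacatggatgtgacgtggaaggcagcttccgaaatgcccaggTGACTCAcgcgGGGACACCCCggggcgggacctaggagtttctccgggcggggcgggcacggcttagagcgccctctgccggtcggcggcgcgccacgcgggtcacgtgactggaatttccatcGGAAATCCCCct
Nfkbia: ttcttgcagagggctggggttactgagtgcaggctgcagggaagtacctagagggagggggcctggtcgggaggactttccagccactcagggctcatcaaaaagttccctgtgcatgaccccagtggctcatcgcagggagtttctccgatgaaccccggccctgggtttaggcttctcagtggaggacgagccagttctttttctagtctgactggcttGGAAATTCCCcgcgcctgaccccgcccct
The matches begin 125 and 12 bases before the start of Tnfaip3 and 29 bases before that of Nfkbia. The AP-1 motif of Tnfaip3 begins 136 bases before the start and does not overlap the NF-kB match that follows it. The TATAAA marked there begins 225 bases before the start. RefSeq's table holds a second start of Tnfaip3, whose window has none of the motifs searched.

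**Figure D2:**
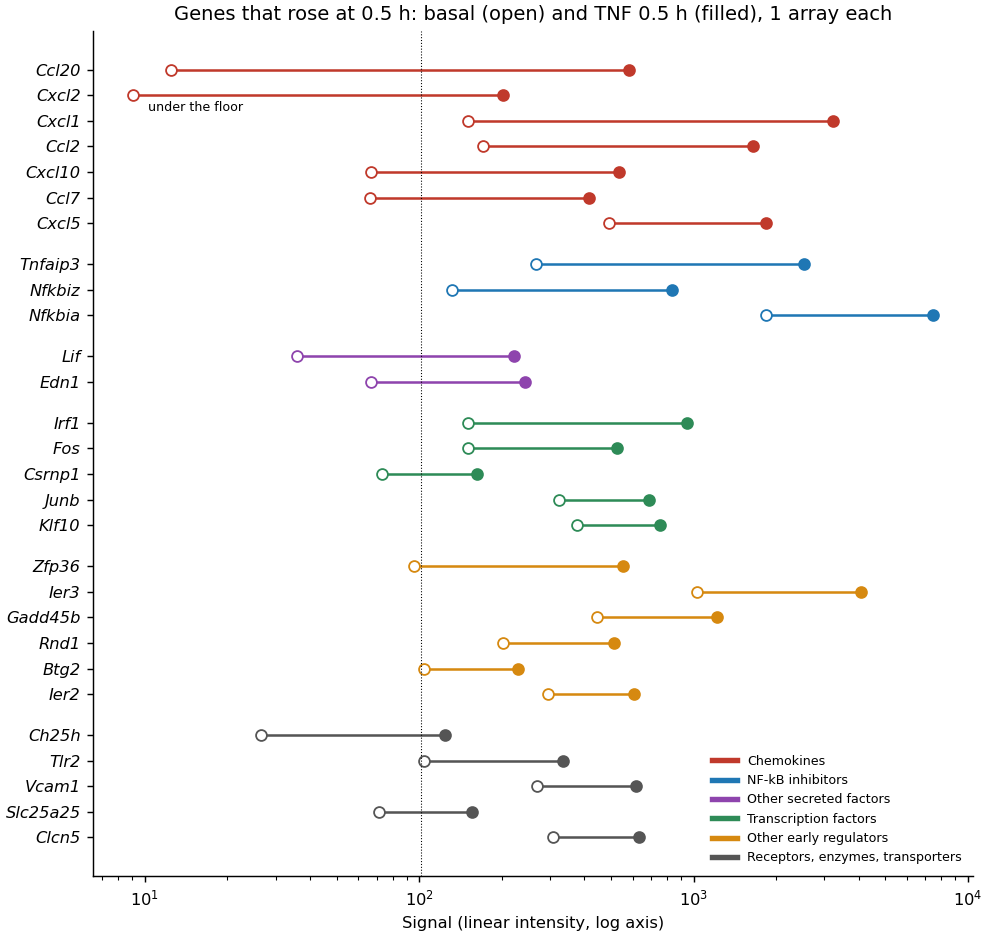
Basal (open) and 0.5 h (filled) signals of the 28 genes that rose, on a log axis of linear intensity, 1 array each and ordered by role; the dotted line marks a signal of 102. The start of the lines differs widely, from under the floor for Cxcl2 and 12.5 for Ccl20 to 1843 for Nfkbia, and 10 genes began below the dotted line.

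Of the other secreted factors, 2 of 12 cytokines and growth factors of clear signal rose (32 measured, median log2 ratio 0.23). Lif, a cytokine of the interleukin-6 family, read 36.0, 222, 122 and 68.7, and its other probe set lay under the floor on the basal and 0.5 h arrays. Edn1, which encodes the vessel-constricting peptide endothelin-1, read 66.8, 243, 68.2 and 69.5, so it was high on the 0.5 h array alone among these 4. Ereg, a ligand of the EGF receptor, stood just under the rule, at 388 and 772 (log2 ratio 0.99, 8.51 times the scatter). The macrophage growth factor Csf1 read 1363 and 1912 (0.49), with 0.28 to 0.83 over its 4 clear probe sets. Tnf itself was at 3.02 and 25.3 and Csf2 at 3.16 and 21.1, both below clear signal, while Il6 read 8.06 and 10.2.

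Transcription factors of the immediate early class had smaller ratios than most chemokines. FOS and JUN proteins pair to form AP-1. In the list of FOS, JUN, ATF and MAF factors 2 of 11 genes of clear signal rose, 8 of 11 had a ratio above 0, and the median log2 ratio was 0.47. Fos read 151, 526, 97.9 and 22.6, so it was above basal at 0.5 h only. Junb read 323, 688, 356 and 168. Below the rule stood Jun at 432 and 803 (0.89, its other probe set 0.60), the Fos relative Fosl1 at 355 and 622 (0.81, its other clear probe set 0.35) and the stress factor Atf3 at 77.9 and 132 (0.76). Jund, which most cells carry at a steady level, read 861 and 748.

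Of 13 EGR, NR4A and KLF factors of clear signal, 1 rose and 0 fell (median 0.15). It was Klf10, a zinc finger factor first known from TGF-beta signalling, which read 377, 755, 372 and 151 and only just met the rule at 2.00-fold. Egr1, a zinc finger factor induced by serum and stress, was already at 2174 in starved cells and read 3688 at 0.5 h. That log2 ratio of 0.76 was short of 2-fold and 10.6 times the scatter at its signal. Klf2 (342 and 453) had a smaller ratio, Egr2 read 81.9 and 120 (0.55, its other clear probe set 1.07), and the orphan receptor gene Nr4a1 stood at 736 and 753. Klf4 read 781 and 545 (-0.52), but 0.17 on its other clear probe set.

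Irf1 was the only gene of 8 clear IRF, STAT and SOCS genes to rise. Its product is a transcription factor of interferon and antigen presentation genes. The 4 arrays read 151, 950, 621 and 284, and the log2 ratio at 0.5 h was 2.66. Of the 5 interferon-stimulated genes of clear signal 0 rose, with log2 ratios from 0.01 to 0.21. Among low signals in that list, Ifi47 (3.96 to 36.8) and Iigp1 (11.8 to 25.6) were 2-fold or more higher and Ifih1 (75.6 to 36.2) lower. Socs3, an inhibitor of cytokine receptors, read 266 and 173 (-0.62), but -0.06 on its other clear probe set.

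Zfp36 encodes tristetraprolin, which binds AU-rich elements and speeds the decay of cytokine mRNAs. Its signals were 95.6, 552, 145 and 79.3, high on the 0.5 h array and near basal on the last. It was the only 1 of 17 clear mRNA decay regulators to rise, and the list's median was -0.02. The RNase gene Zc3h12a was 3.47-fold higher at a low signal (20.3 to 70.5). The Zfp36 relatives Zfp36l1 (230 and 298) and Zfp36l2 (1611 and 2140) had log2 ratios of 0.37 and 0.41, and Elavl1, encoding the mRNA-stabilising protein HuR, read 763 and 694.

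The stretch before the start of Zfp36 (chr7:28379229-28379478, minus strand, 250 bases) is printed as the only one among the risen genes with a window that holds a CArG box, the site of SRF. Capitals mark the CArG box and a GAS motif (TTCNNNGAA), which begin 58 and 17 bases before the start:
Zfp36: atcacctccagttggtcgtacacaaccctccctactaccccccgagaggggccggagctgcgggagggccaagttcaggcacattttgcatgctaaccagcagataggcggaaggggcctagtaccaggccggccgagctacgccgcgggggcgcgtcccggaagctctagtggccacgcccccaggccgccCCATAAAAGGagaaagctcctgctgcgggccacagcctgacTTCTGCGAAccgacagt
For comparison, the NF-kB consensus matches in Irf1 and Fos, with 10 bases on either side, begin 13 and 214 bases before the start:
Irf1: agtccgggccGGGGAATCCCgctaagtgtt
Fos: ggaaggtctaGGAGACCCCCtaagatccca

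The list of other immediate early genes was the widest, with 6 of 32 clear genes risen, 24 of 32 ratios above 0 and a median log2 ratio of 0.19. Ier3, a survival-related gene of strong signal, read 1032, 4064, 2431 and 1702. Gadd45b, a stress gene whose product binds MAP kinase kinases, read 446, 1214, 866 and 560, and its second clear probe set gave a larger ratio (1.77 against 1.45). Rnd1 read 202, 515, 590 and 579 and thus held its level. Btg2, an antiproliferative gene, read 104, 228, 110 and 47.6, with 1.14 and 1.19 from its 2 probe sets. Ier2 read 294, 606, 234 and 134. Csrnp1, a nuclear factor gene, read 73.1, 162, 58.7 and 42.1, and its ratio was 4.45 times the scatter, among the smallest of the 28.

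Members of the same list just under the rule were the kinase gene Pim1 (297 and 521, log2 ratio 0.81), Errfi1, an inhibitor of the EGF receptor (649 and 1057, 0.70), and Plk2 (491 and 743, 0.60). All 3 lay more than 5 times the scatter above 0. Some classic serum-response genes stood near their basal level: Myc read 340 and 383 and Dusp1, a MAP kinase phosphatase, 1511 and 1727. The 4 clear probe sets of Ccn1 disagreed, from -0.57 to 0.49, with the brightest at 5602 and 5816. Of 8 clear MAP kinase phosphatase and Sprouty genes 0 rose, with a median of 0.19.

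The remaining risen genes encode receptors, enzymes and transporters. Tlr2, the receptor for bacterial lipoproteins, read 104, 335, 833 and 546. Ch25h, which makes 25-hydroxycholesterol, read 26.5, 124, 191 and 156. Vcam1, an adhesion molecule for leukocyte integrins, read 269, 618, 1293 and 973. These 3 went on to higher signals at 2 h. For Vcam1 the 3 probe sets gave 1.20, 0.88 and 0.71, so only the brightest passed 2-fold. The other 9 clear adhesion genes had log2 ratios between -0.21 and 0.06, and Icam1 was at 19.1 and 21.5.

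Slc25a25 and Clcn5 were in none of the lists. Slc25a25, a mitochondrial carrier that exchanges ATP-magnesium for phosphate, read 71.2, 156, 69.7 and 64.9, above basal at 0.5 h alone. Clcn5, a chloride transporter of endosomes, read 307, 632, 531 and 718 on its representative probe set, whose probes can also match other transcripts (suffix x_at). A second clear probe set of Clcn5 read 326 and 307 (-0.09), and the median over all its probe sets was -0.17, so the rise of Clcn5 rests on 1 probe set of uncertain target.

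**Figure D3:**
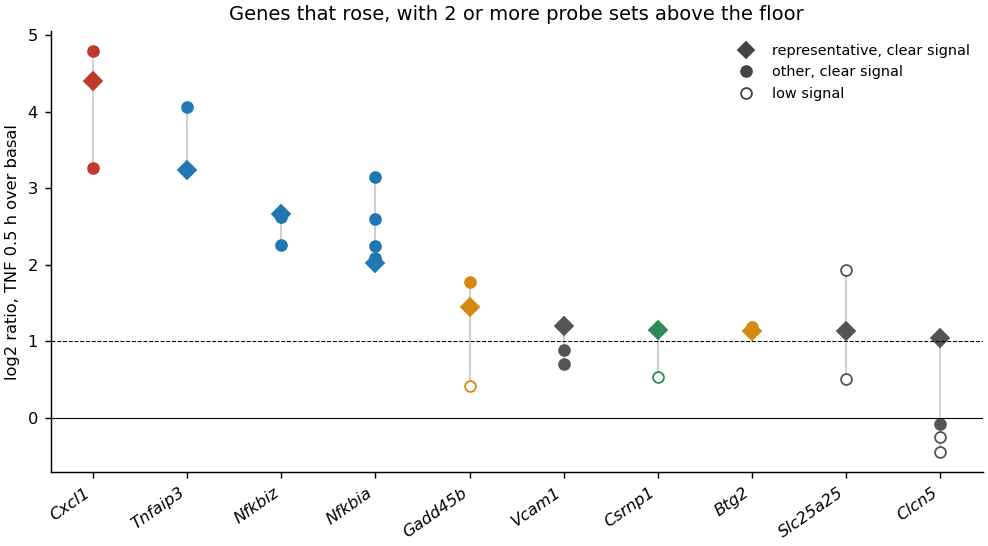
Log2 ratio of each probe set, for risen genes with at least 2 probe sets above the floor; diamonds mark the representative, filled symbols clear signal and open ones low signal, and the dashed line is 2-fold. Probe sets of Cxcl1, Tnfaip3, Nfkbiz, Nfkbia and Btg2 all lie above 2-fold, those of Vcam1 lie on both sides of it, and those of Clcn5 lie below 0 except for 1.

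Agreement between the probe sets of a gene was checked throughout. Of the 28 risen genes 17 have a single probe set. For 8 of them 2 or more were clear, which were of the same sign for 7 and all past 2-fold for 6 (Cxcl1, Tnfaip3, Nfkbiz, Nfkbia, Gadd45b and Btg2). No other gene could be so agreed without being called, since its representative probe set would also be past 2-fold. Among all 2662 genes with 2 or more clear probe sets, 48.8% had a single sign. Those 2662 were not chosen for a large ratio, so the 2 shares are not on a par. Probe sets of a gene share both arrays and are no replicates of the treatment.

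Against these rises stands what did not move. Of 19 clear genes of the TNF receptor and its proximal signalling 0 rose and 0 fell, with a median log2 ratio of -0.03. Tnfrsf1a, the receptor itself, read 529 and 464, its adaptor Tradd 200 and 155, and the deubiquitinase gene Cyld 375 and 287. The kinase gene Map2k4 read 197 and 311 (0.66), but -0.03 on its other clear probe set. At low signal the kinase gene Map3k8 (16.2 to 43.6) and the adaptor gene Traf1 (1.34 to 19.3) were 2-fold or more higher. Of 5 clear genes of IKK and NF-kB subunits 0 changed (median 0.21): Rela, the main activating subunit, read 591 and 685, Nfkb2 83.1 and 113, and Ikbkb 298 and 325, with -0.40 on its other clear probe set. Relb was higher at low signal (20.2 to 46.4), and Nfkb1 was not analysed here.

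Of 11 clear genes of the late and secondary TNF targets, Tlr2 and Ch25h rose and 0 fell. Ptgs2, the inducible cyclooxygenase, read 1116 and 1574 (log2 ratio 0.50), the metallothionein Mt2 289 and 503 (0.80), the stromelysin Mmp3 282 and 329, and Sod2 1558 and 1468. In the lists of death and survival, contractile and SRF target, G2/M, ribosomal protein and reference genes, 11, 17, 17, 16 and 11 had clear signal. None of these rose or fell. Their median log2 ratios were -0.03, -0.04, -0.12, -0.01 and -0.13. The contractile and SRF target list does not hold Fos, Junb, Ier2 or Egr1, which are counted in other lists, so it does not speak for all SRF targets. Actb, for example, read 10067 and 10148 and Gapdh 8843 and 8542.

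**Figure D4:**
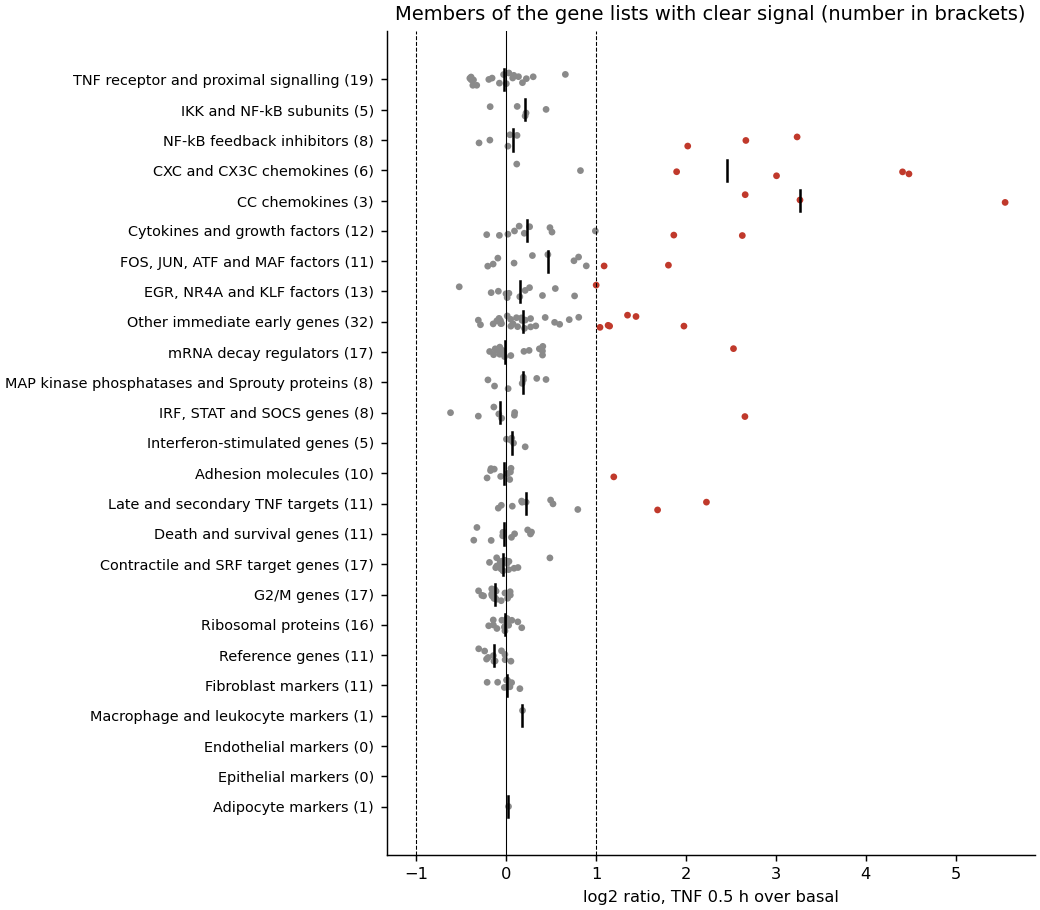
Log2 ratios of the clear members of each gene list (number in brackets), with risen genes in red, a black bar at the median and dashed lines at 2-fold; the vertical spread within a list has no meaning. Most clear chemokines lie beyond 2-fold, 4 of them being clear only on the 0.5 h array, the immediate early lists have a few risen genes beyond a cluster near 0, and the signalling, cycle, ribosomal and reference lists stay within 2-fold.

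The cells showed the marks of fibroblasts on both arrays. Col1a1 read 3388 and 3431, Col1a2 4869 and 4992, and Vim 9818 and 10254, while Thy1, Dcn, Lum and Fap were of low signal. Of the 12 macrophage and leukocyte markers only Cd14, which fibroblasts can also carry, was clear (98.2 and 111), and the list's summed signal was 290 and 329. Its members lay on both sides of the floor. Ptprc and Itgam were under it on both arrays, while Csf1r (58.7 and 61.1), Adgre1 (25.8 and 35.1) and Cd68 (22.5 and 18.5) were above it at low signal. Endothelial markers summed to 77.2 and 82.7 and epithelial markers to 152 and 137, each with 0 clear of 8. Among 7 adipocyte markers Fabp4 was clear at 1856 and 1886, with Adipoq at 8.14 and 2.99. The part of such cells in the risen genes was not tested.

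Only 4 genes fell, and none is backed by a second clear probe set. Kcnj11, a potassium channel subunit, read 143, 32.6, 136 and 149, low on the 0.5 h array alone, while its other probe set, of low signal, went from 2.13 to 14.5. Ces5a, a carboxylesterase, read 204, 69.8, 80.0 and 37.8 on a probe set of the x_at type, and its other probe sets lay under the floor. Slc25a14, a mitochondrial carrier with 1 probe set, read 134, 62.8, 48.5 and 57.2. Rhbdd3 read 144, 70.0, 104 and 83.8, also on an x_at probe set, and its other 2 gave -0.14 and -0.43 at low signal. Such x_at probe sets make up 8.44% of the 11997 clear ones and hold 6 of the 12 that were 2-fold or more lower, against 5 of the 46 that were higher.

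Among the 10 genes nearest to 2-fold on each side, members of the gene lists stood on the higher side only. The lists were chosen with earlier results of these data known, so this is no support by itself. The 10 nearest on the higher side ran from 0.99 to 0.80 and were Ereg, Rrp9, Crebl2, Jun, Cx3cl1, Cyp4f16, Tbc1d22a, Pim1, Fosl1 and Rusc1, of which 5 are members of the lists. Those on the lower side ran from -0.96 to -0.78 and were Timm9, Mlst8, Top3b, Gpaa1, Strbp, Mettl23, Wdr44, Tmem116, 4930542D17Rik and Apba3, with none in a list. Timm9 read 147 and 75.4, and Mlst8, a subunit of the mTOR complexes, 120 and 62.6. Measured by the scatter at their own signal instead of by fold, 39 clear genes were at least 5 times the scatter higher and 5 lower, and 16 and 0 at least 10 times.

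The later arrays give the levels of these genes at 2 and 12 h, and levels between the sampled times were not measured. The highest signal was that of 0.5 h for 18 of the 28 genes, that of 2 h for 7 and that of 12 h for 3. The genes were chosen for a high 0.5 h value, which by itself favours that time, and the 3 ratios share the basal array. At 2 h 17 of the 28 were 2-fold or more above basal and at 12 h 13, with Cxcl2 counted from the floor. The shares of all clear genes that far above basal are not given here. These counts and those by role thus have no background to be set against. By role, 6 of 7 chemokines were still 2-fold or more above basal at 12 h, and 0 of the 5 transcription factors were. Signals of the 5 transcription factors at 2 h were 18.6% to 65.4% of those at 0.5 h, with Fos lowest and Irf1 highest.

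Some of the risen genes ended below the starting level. At 2 h 5 of the 28 (Fos, Csrnp1, Slc25a25, Ier2 and Klf10) read less than in basal cells, and at 12 h 8, with Zfp36, Btg2 and Junb added. Over all 7118 clear genes the unscaled signals were under basal for 75.5% at 2 h and 78.6% at 12 h, so a reading just under basal is the common case. Slc25a25 and Klf10 at 2 h, at -0.03 and -0.02 (log2), lay within the scatter. Fos, Btg2, Ier2 and Klf10 were 2-fold or more below basal at 12 h, as were 2.71% of all clear genes. Edn1 and Nfkbiz ended close to where they began, at log2 values over basal of 0.06 and 0.10 at 12 h.

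**Figure D5:**
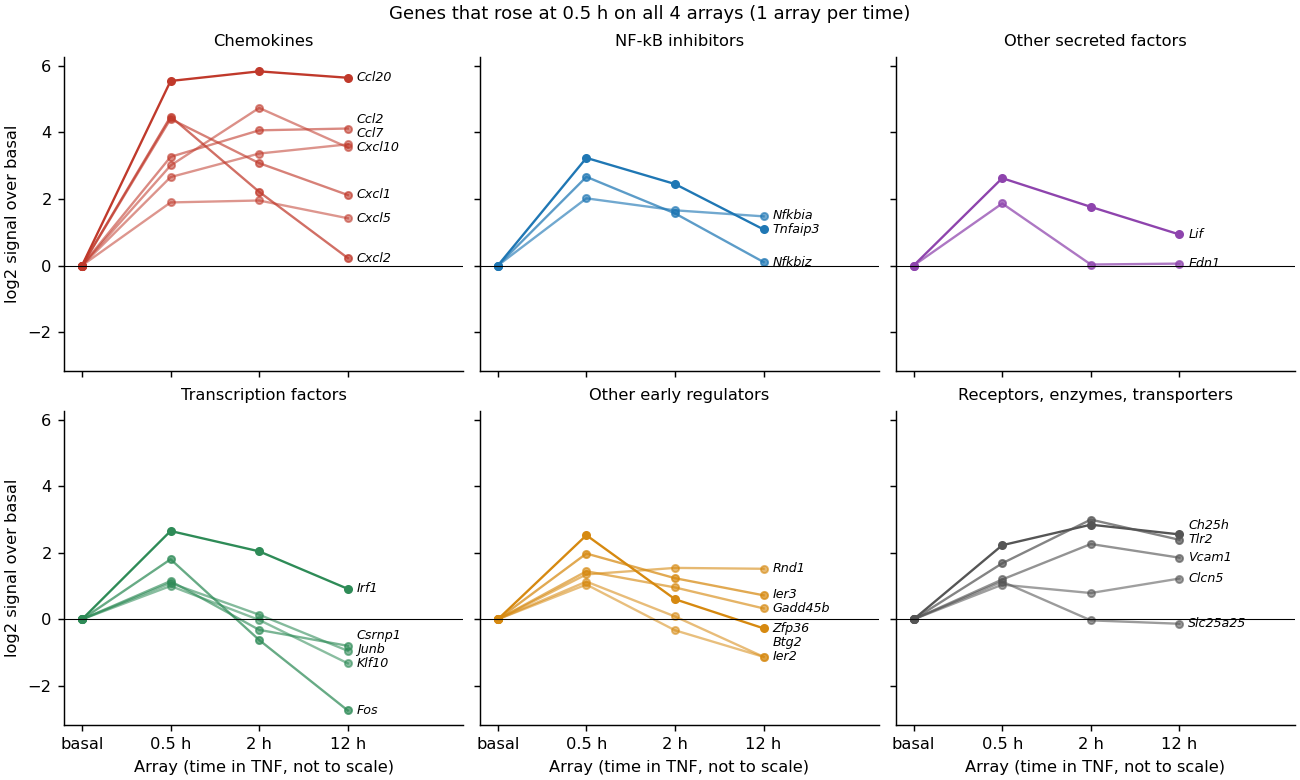
Log2 signal over basal of the 28 risen genes on the basal, 0.5 h, 2 h and 12 h arrays, 1 array per time, in 6 panels by role, with signals under the floor drawn at it. Most chemokines and Tlr2, Ch25h, Vcam1 and Rnd1 stay high, while Fos, Junb, Klf10, Csrnp1, Zfp36, Btg2 and Ier2 end near or below basal and Irf1 stays above it.

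The promoter windows of the risen genes were searched for 6 motifs on both strands. RefSeq's table holds a window for 20 of the 28, and not for Ccl2, Ccl7, Cxcl5, Ier2, Klf10, Nfkbiz, Rnd1 and Vcam1. A gene with several starts has a window for each, and a motif was counted for a gene where any window held it. Such genes thus had more chances of a match. Tnfaip3, Irf1, Csrnp1, Slc25a25 and Clcn5 have windows without their matches, and distances are from the start whose window holds the match. The NF-kB consensus was present for 11 of the 20 (55%), namely Ccl20, Cxcl1, Cxcl2, Cxcl10, Tnfaip3, Nfkbia, Irf1, Fos, Ier3, Lif and Tlr2. It was present in 8.46% of all 32851 windows and for 12.1% of 5840 genes of clear signal that stayed within 2-fold. The TATA box (TATAAA) was present for 7 of 20, against 13.6% of windows and 8.25% of those genes, and AP-1 (TGANTCA) for 4, against 7.81% and 5.29%. TATAAA was counted anywhere in the window. It began 225 (Tnfaip3), 172 (Clcn5), 151 (Ch25h), 46 (Gadd45b) and 33 (Fos) bases before the start. In Junb it lay 1 base after the start, and in Nfkbia 20 bases after it on the opposite strand. Whether any of them works as a TATA box was not tested. The cAMP response element (TGACGTCA) was present for 3, against 1.79% and 3.89%, GAS (TTCNNNGAA) for 3, against 8.30% and 7.57%, and the CArG box for 1, against 1.63% and 1.68%. These are counts of letters in short windows, given without a test, and a match is not shown to be a bound site.

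The risen genes with an NF-kB match had log2 ratios from 1.69 to 5.55 (median 2.66), and the 9 with a window but no match from 1.04 to 2.53 (median 1.15). The ranges overlap through Zfp36, Ch25h and Edn1. The 8 genes with no window had a median of 1.62, with Klf10 lowest and Ccl2 highest at 3.27. Of the genes without an NF-kB match, Btg2, Ch25h and Slc25a25 are those that hold the cAMP response element. The remaining matches are shown to let their letters be compared with those of Cxcl1 and Tnfaip3, again with the match in capitals, on the gene's strand:
Ier3: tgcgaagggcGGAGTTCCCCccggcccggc
Lif: atcaagtacaGGGACGCCCCctccccacac
Tlr2: taggacacctGGGGAATTCCcacacggagc
Btg2 (cAMP response element): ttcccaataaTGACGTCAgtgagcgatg
Ch25h (cAMP response element): gacggaagggTGACGTCActggggggag
Slc25a25 (cAMP response element): ctgcaagcagTGACGTCAgtcctgatct
The first capital lies 92, 178, 173, 166, 61 and 150 bases before the start, in that order. Tlr2 has a second NF-kB match 8 bases before its start, beside 1 that overlaps the first by all but 1 base.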

How the data were processed

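RNA was measured on 4 Affymetrix oligonucleotide arrays of the mouse genome, 1 for each of 4 groups, per the labels' protocols. The deposited values are linear intensities of 45101 probe sets per array. How the signal was computed and whether arrays were scaled to each other is not given in the sources used here. Array medians ran from 19.9 to 22.1, and Pearson's r of basal and 0.5 h log2 signals was 0.988 across 11516 probe sets with a mean signal above 102. The platform annotation named 1 gene for 34958 probe sets and several for 932, 9211 had none there and 64 were controls. RefSeq GRCm38.p6 held the symbols of 34754, and 0 changed.

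The log2 ratio of 0.5 h over basal was taken from the deposited intensities without further scaling, and the scatter was computed in doublings of the mean signal, with the median absolute deviation times 1.4826. 2766 genes under the floor on both arrays were left out of the all-gene counts at low signal, but such genes were kept in the counts of the lists. Promoter windows were read on the gene's strand. Calculations used Python 3.11.15, numpy 2.4.6, pandas 2.3.3, statsmodels 0.14.6 and matplotlib 3.10.9. The calling steps were checked on simulated data with genes moved 3-fold, which does not cover calls near 2-fold.

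The 25 lists (455 genes, 418 measured), the markers and the alternatives were chosen with earlier results of these data known. Named genes were all that rose or fell, the 10 next below 2-fold in each direction, list members past 2-fold at any signal above the floor (the 4 largest a list) and 20 genes named in advance; other list members serve as examples chosen after their values were seen. With 1 array a group, 0 tests were run and no replicate could be left out. Alternatives were 3 ways of scaling, 2 other rules for a gene's probe set, 2 other floors, 3 other limits of clear signal and rules of 1.5-fold and 3-fold; 1 more, clear signal on the basal array, was added after seeing the data.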

Additional observations from a re-analysis of the deposited data

How the results depend on the processing

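Scaling by the median, by quantiles or by loess gave 29 risen and 3 fallen genes each, with Ereg added and Rhbdd3 lost. With the median of a gene's probe sets 27 rose (Clcn5, Csrnp1 and Vcam1 lost, Inpp5k and Paxx gained) and 8 fell, of which 1 (Slc25a14) was among the original 4; Clcn5 then read -0.17 and the low-signal Mycn -0.68, both reversed. A floor at the 75th percentile left 24 risen genes (without Ch25h, Csrnp1, Cxcl2 and Slc25a25) and 1 fallen, Ces5a. With clear signal required on the basal array, added after seeing the data, 18 rose, of which 3 had 2 or more clear probe sets that all passed 2-fold. With clear signal at the 90th percentile 20 rose and 0 fell, and at the 50th percentile 300 and 361; with none required the counts were 415 and 481. The 1.5-fold rule gave 58 and 52 and the 3-fold rule 18 and 1. Genes highest at 0.5 h then numbered 235 (50th percentile), 323 (no limit), 43 (1.5-fold) and 11 (3-fold), and the share with an NF-kB consensus 15.7%, 15.2%, 26.7% and 78.6%. These settings change which genes are counted by their construction. Low signal limits the comparison: below a signal of 32 the scatter is over 0.50 on the log2 scale, and no array repeats either condition.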

Other observations

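Some genes passed 2-fold at clear signal only on a probe set that is not their brightest, so they are not among the 28 and 4. Egr2, a zinc finger factor of the immediate early class, read 55.2 and 116 on such a probe set, a log2 ratio of 1.07, and 12.5 and 10.1 on the later arrays. Dab2, an endocytic adaptor, gave 1.66, Mphosph8 1.05 and Rgs3, a regulator of G protein signalling, 1.03. On the lower side Vcan, which encodes a matrix proteoglycan, gave -1.08, Fra10ac1 -1.30 and Eif2b2 -1.44. Tbca, Tarbp2, Igf2bp1 and Rps9 gave -1.91, -1.88, -1.16 and -1.02, each on an x_at probe set. These genes were chosen after their values were seen.

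Within 2-fold, a group of bright genes stood more than 5 times the scatter from 0. Ptx3, a soluble pattern recognition protein, read 1354 and 1967, Noct, a clock-controlled phosphatase, 442 and 679, and Phlda1 1060 and 1434. On the lower side stood Atp5md, a small subunit of ATP synthase, at 1954 and 1311, Gm12338 at 3225 and 2375, and Ctnna1, encoding alpha-catenin, at 3557 and 2719 on an x_at probe set. Of the genes that were 2-fold or more higher at low signal, the AP-1 partner Batf (2.75 to 18.9) and Mycn (9.04 to 41.1) began under the floor.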
